A study of Homo sapiens with 3 samples.

Results

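The set described here is the group of shared BRG1 peaks on the short arms and around the centromeres of the acrocentric chromosomes. A peak belongs to it when its midpoint lies below 20.5 Mb on chromosome 13, 14 or 15, below 14 Mb on chromosome 21 or below 17 Mb on chromosome 22. These bounds use position only, and they took in 1403 of the 6343 peaks of the deposited overlap list (22.1%, Wilson 95% interval 21.1 to 23.2). BRG1 was mapped by chromatin immunoprecipitation and sequencing in unmodified (wild-type) cells of 12Z, a human epithelial line established from endometriosis. There were 2 BRG1 libraries, here replicates 1 and 2, and 1 input library, for which no list was used here. Fixed chromatin (1% formaldehyde) was digested by micrococcal nuclease with a short sonication, and the labels name no treatment. No label says that the replicates were separate cultures, so their spread may be technical.

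BRG1, encoded by SMARCA4, is an ATPase that drives the SWI/SNF complexes, which slide and evict nucleosomes. Acrocentric chromosomes have a centromere close to one end, and their short arms carry the ribosomal DNA repeats around which nucleoli form, with satellite arrays and duplicated segments on either side. The GRCh38 assembly represents each centromere by a computed model of alpha satellite, an array of near-identical units, and much of each short arm is unassembled. A short read from such sequence fits many places, and a read from a copy that the assembly lacks can pile up on a copy that it holds. The treatment of reads with several equally good places was not given in the sources used here, and repeat classes were not analysed, so the part of either in the values below was not tested.

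No sequence of the peaks themselves was used here. The RefSeq tables (GRCh38.p14) gave sequences for 10 of the 13 microRNA genes in the bounds, and 6 of the 13 lay under a shared peak, 3 of them with a sequence. Those 3 and their near-identical relatives are shown because they let single peaks on the ribosomal DNA and its fragments be compared between copies of one sequence. The capitals mark the seed, bases 2 to 8 of the mature RNA.
hsa-miR-6724-5p: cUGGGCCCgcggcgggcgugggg
hsa-miR-3648: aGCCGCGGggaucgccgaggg
hsa-miR-10396a-5p: gGCGGGGCucggagccggg
hsa-miR-10396a-3p: gGCCCCGGgcccucgaccggg
hsa-miR-10396b-5p: cGGCGGGGcucggagccggg
hsa-miR-10396b-3p: gGCCCCGGgcccucgaccggac
The 3p products of MIR10396A and MIR10396B shared the seed GCCCCGG, and their 5p products had seeds shifted by a base. All of these mature RNAs were rich in G and C, from 80.95% for hsa-miR-3648 to 91.3% for hsa-miR-6724-5p.

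MIR6724-2 and MIR6724-4 have identical sequence and received different calls in the overlap list only. The hairpins of MIR6724-2 (chr21:8249505-8249596, plus strand) and MIR6724-4 (chr21:8432530-8432621, plus strand) are the same 92 bases:
MIR6724-2 and MIR6724-4: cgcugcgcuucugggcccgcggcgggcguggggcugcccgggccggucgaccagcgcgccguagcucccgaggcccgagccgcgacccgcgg
MIR6724-4 lay under a shared peak of fold 2.01, and MIR6724-2 lay 4.06 kb from the nearest one. In neither replicate list did a peak cover either hairpin. The broader shared peak over MIR6724-4 thus spans a break that both replicates have there. The tables used here give no sequence for MIR6724-1 and MIR6724-3, so their identity to these was not seen. MIR6724-1 was covered by a peak of replicate 2 but not of replicate 1, and MIR6724-3 by a peak of replicate 1 but not of replicate 2. No 2 of these 4 genes therefore had the same calls in all 3 lists. The pair MIR3648-1 and MIR3648-2 did have the same calls, with a peak in each of the 3 lists. Their shared peaks had folds of 2.13 and 2.95, and no sequence was given for MIR3648-1.

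MIR3648-2 and MIR10396A lay under a single shared peak at chr21:8986730-8990778, away from the ribosomal DNA genes of the assembly. Its fold was 2.95 in the overlap list, 2.77 in replicate 1 and 3.49 in replicate 2, and its −log10 q was 7.40. A replicate 2 peak overlapped MIR10396A itself and no replicate 1 peak did, while MIR3648-2 was overlapped by a peak of each replicate. The mature hsa-miR-3648 lies at chr21:8987026-8987046 and the MIR10396A hairpin at chr21:8987617-8987665, both on the plus strand. MIR10396B, whose 3p product has the same seed as that of MIR10396A, lay 306 bp outside the nearest shared peak. That peak is a different one, chr21:8404342-8436018 in the ribosomal DNA.

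The fold of a peak is the authors' ratio of ChIP signal to background, and the q-value is theirs as well, so both serve here to describe and rank peaks within their own list. Replicate 1 listed 17399 peaks in all, of which 3030 lay in the bounds (17.4%, Wilson 95% interval 16.9 to 17.99). Replicate 2 listed 10157, of which 2613 lay in the bounds (25.7%, 24.9 to 26.6). Replicate 1 thus had 1.16 times as many peaks as replicate 2 inside the bounds and 1.90 times as many outside. The intervals of the replicates do not overlap, but they cover counting error only and treat peaks as independent. The share of the overlap list lay between the shares of the replicates. Shared peaks in the bounds covered 1932 kb, which was 25.9% of all bases under shared peaks.

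The members filled a small part of each chromosome densely. On chromosome 13 there were 195, on chromosome 14 205, on chromosome 15 230, on chromosome 21 432 and on chromosome 22 341. They made up 82.3% of all shared peaks of chromosome 13, 76.2% of those of chromosome 14, 86.6% of those of chromosome 21 and 87.4% of those of chromosome 22. On chromosome 15 the share was lower, 49.3%, because its long arm held 237 shared peaks against 42 to 67 on the others. Counted from the first to the last member of each chromosome, the density ran from 45.2 per Mb on chromosome 13 to 67.6 per Mb on chromosome 15. Beyond the bounds the same chromosomes held 0.452 per Mb on chromosome 13, 0.775 on chromosome 14, 1.47 on chromosome 22, 2.16 on chromosome 21 and 2.94 on chromosome 15. The individual replicates had the same contrast: peaks of replicate 1 covered 5.58% of the span in the bounds and 0.207% of the rest, and peaks of replicate 2 covered 4.76% and 0.0757%.

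Most members lay in the longest stretch without an annotated gene within the bounds of their chromosome. The search for it began at the first gene or listed peak, so a peak could set its start. The shares ran from 99.5% on chromosome 13 to 51.4% on chromosome 21. The longest stretch without an annotated gene held 194 members on chromosome 13, 203 on chromosome 14, 192 on chromosome 15, 222 on chromosome 21 and 204 on chromosome 22, together 1015 of 1403 (72.3%). These counts were close to each other on all 5 chromosomes, while the counts outside the stretches were not. Outside them chromosome 13 had 1 member, chromosome 14 had 2, chromosome 15 had 38, chromosome 22 had 137 and chromosome 21 had 210. Counted from the first to the last member, the density was 84.3 members per Mb in the gene-free stretches and 29.6 per Mb in the remaining span. On chromosome 15 the order was the other way, with 67.0 per Mb inside and 70.5 outside, where the members lay among HERC2P3, RHPN2P1 and other duplicated genes. Gene annotation and peaks were compared by position only, and why the members lie there was not tested.

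**Figure D1:**
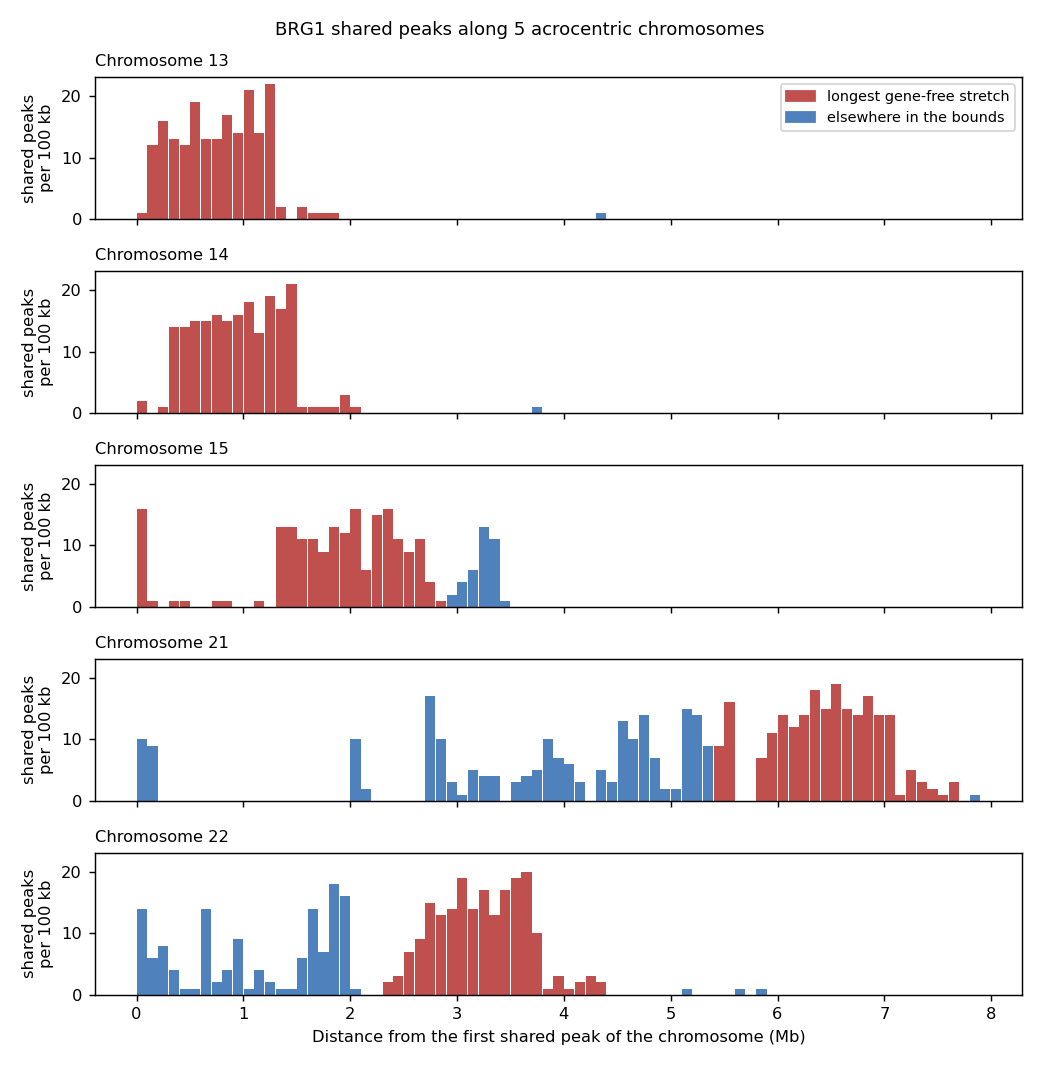
Each bar is the number of shared peaks in 100 kb (vertical axis) by distance in Mb from the first shared peak of the chromosome (horizontal axis), for the 5 acrocentric chromosomes. Bars of the longest gene-free stretch are red and other bars blue: chromosomes 13 and 14 have 1 red block each, while chromosomes 21 and 22 also have 210 and 137 members outside theirs.

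Dense runs of members alternate with long stretches that have no member. Of 255 windows of 100 kb, 90 held none, the median was 2 and the highest was 22. On chromosome 13 no member lay from 17914185 to 20419842, a stretch of 2.51 Mb with 76 annotated genes. The matching stretch of chromosome 14, from 18118201 to 19823006, was 1.70 Mb long and held 57 genes. On chromosome 21 the longest ran from 5385831 to 7228585, 1.84 Mb with 32 genes. The replicate lists were not empty in these stretches, with 11, 15 and 6 peaks of replicate 1 and 8, 6 and 3 of replicate 2, but no shared peak was listed there.

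Neighbouring members were close together. The median gap between neighbours was 3.83 kb (quartiles 1.29 and 9.26 kb), against 73.4 kb between shared peaks elsewhere. Joining members within 10 kb gave 327 groups, of which 123 were single peaks and 106 had 5 or more. These 106 clusters held 1005 members (71.6%), while 8.56% of the other shared peaks lay in clusters of that size. In all, 153 such clusters were found in the overlap list, 47 of them outside the bounds. Most of the clusters in the bounds, 79 of 106, lay mainly in the gene-free stretches. Spacing, clustering and density are not given here for the pericentromeres of the other chromosomes. Whether they are particular to the acrocentric bounds was therefore not tested.

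The 10 clusters with the most members came from 4 of the 5 chromosomes. The 28 peaks of chr14:17401542-17540763 had a median fold of 3.30, with 3.47 for the replicate 1 peaks and 3.73 for the replicate 2 peaks behind them. Chromosome 13 held a pair of 24, at chr13:17093017-17181311 (median fold 3.05) and chr13:17316518-17418510 (3.28). Chromosome 21 held 23 at chr21:12178111-12283054 (median fold 3.21) and 21 at chr21:10684395-10814507 (2.65). All of these lay in gene-free stretches, the last of them nearest to IGHV1OR21-1, an immunoglobulin variable-segment orphon 34.6 kb away.

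The remaining large clusters included some that overlapped annotated genes. BAGE2, a transcribed pseudogene of the BAGE family of tumour antigens, was overlapped by the cluster of 20 peaks at chr21:10380443-10473551 (median fold 2.63). FRG1GP, an FRG1-type pseudogene, was the nearest gene, at 45.8 kb, to 19 peaks at chr22:12488960-12569546 (median fold 2.78), which overlapped no gene. LOC124905166 and LOC105379418 lay within 18 peaks at chr22:10701842-10780567, where shared peaks covered 62.8% of the span at a median fold of 2.53. Clusters of 18 also lay at chr21:7986329-8049804 (median fold 2.82) and chr21:11845476-11945734 (3.40). The 4 of these 10 clusters outside the gene-free stretches had 37.7% to 62.8% of their span under shared peaks, at median folds of 2.53 to 2.82. The 6 inside had 19.1% to 36.8%, at median folds of 2.65 to 3.40.

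Enrichment in the bounds was modest. The median fold of members was 3.14 (quartiles 2.82 and 3.41, range 2.01 to 5.51), against 3.33 for all shared peaks. The rest of the same chromosomes had a median of 3.48, the pericentromeres of the other chromosomes (within 5 Mb of their centromere bands) 2.87 and the remaining genome 3.47. Acrocentric members thus stood between the other pericentromeres and the chromosome arms. In the replicate lists the median fold of all peaks in the bounds was 3.38 for replicate 1, against 3.53 for its whole list, and 3.57 for replicate 2, against 3.71. A fold of 4 or more was reached by 38 members (2.71%), against 7.68% of all shared peaks.

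By q-value the members were close to the list as a whole. A −log10 q at or above 5 was held by 327 members (23.3%, Wilson 95% interval 21.2 to 25.6), and by 21.8% of all shared peaks. In the rest of the same chromosomes it was 15.3%, and in the other pericentromeres 40.1%. In the single lists, 115 of the 3030 peaks of replicate 1 in the bounds reached it (3.80%, against 3.21% of that list), as did 137 of the 2613 of replicate 2 (5.24%, against 5.30%). Only 42 members had a replicate peak reaching it in both replicates (2.99%, 2.22 to 4.02), against 3.89% of all shared peaks and 10.97% in the other pericentromeres. This count did not use the value of the overlap list. The shares were thus far lower in the replicate lists than in the overlap list.

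Chromosomes differed in these values. The median fold was 3.27 on chromosome 13, 3.28 on chromosome 14, 3.12 on chromosome 15, 2.93 on chromosome 21 and 3.15 on chromosome 22. The share with a −log10 q at or above 5 was 32.3% on chromosome 13 and 30.2% on chromosome 14, and 20.4%, 20.1% and 19.9% on chromosomes 15, 21 and 22. Within the gene-free stretches alone the median folds were 3.27, 3.28, 3.19, 3.28 and 3.29 in the same order. Outside the stretches the medians were lower, 2.52 on chromosome 15, 2.71 on chromosome 21 and 2.82 on chromosome 22.

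Members inside and outside the gene-free stretches differed in the same way in both replicates. The median fold was 3.26 inside and 2.73 outside in the overlap list, 3.48 and 3.09 for the replicate 1 peaks, and 3.68 and 3.23 for the replicate 2 peaks. A −log10 q at or above 5 was held by 284 of the 1015 inside (27.98%, 25.3 to 30.8) and 43 of the 388 outside (11.1%, 8.33 to 14.6). The intervals, which cover counting error and treat peaks as independent, do not overlap. Peaks outside were wider, with a median of 1578 bp against 810 bp.

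**Figure D2:**
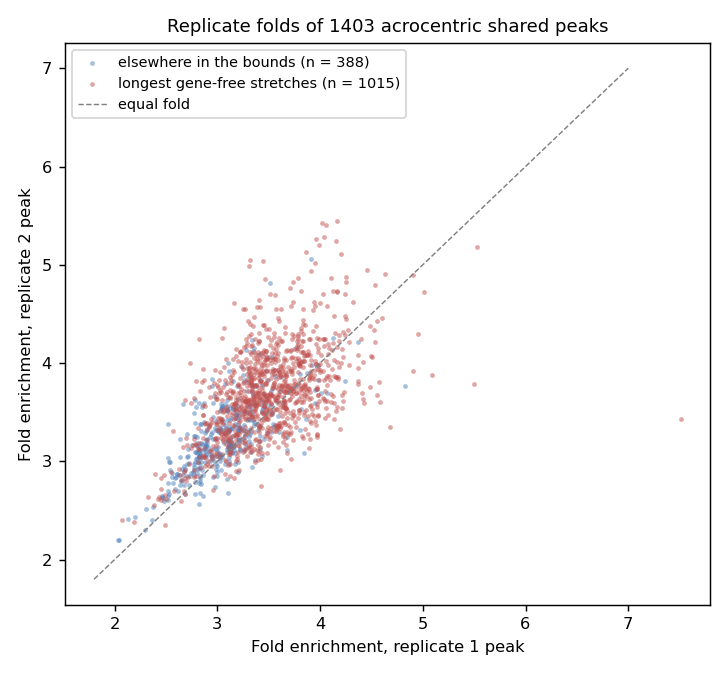
Each point is a member peak by the fold enrichment of its replicate 1 peak (horizontal axis) and of its replicate 2 peak (vertical axis); the dashed line marks equal fold. Members of the gene-free stretches (red, n = 1015) reach higher folds in both replicates than the other 388 (blue), whose medians were 3.09 and 3.23.

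The replicates ranked the members in a similar but loose order. Across members the folds of the replicate peaks had a Pearson r of 0.64 and a Spearman rho of 0.65, against 0.72 and 0.70 across all shared peaks and 0.80 and 0.84 in the other pericentromeres. These are descriptions over peaks that share 2 libraries and a genome, and carry no test. The fold was higher in replicate 2 for 1008 members (71.8%), and for 67.6% of all shared peaks. Ranked within its own replicate list, the median member stood at percentile 29.7 in replicate 1 and 38.9 in replicate 2, while the median shared peak stood at 59.1 and 57.5. Shared peaks of the other pericentromeres stood lower, at 12.8 and 19.9, and those of the rest of the same chromosomes higher, at 74.3 and 70.2. Members thus ranked below the typical shared peak in both lists, but above those of the other pericentromeres.

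Peaks in the bounds were found in the other replicate at shares that moved in opposite directions from the whole lists. Of the 3030 replicate 1 peaks, 1480 overlapped a replicate 2 peak by 1 bp or more (48.8%, Wilson 95% interval 47.1 to 50.6), against 36.8% of the list. Of the 2613 replicate 2 peaks, 1489 overlapped a replicate 1 peak (57.0%, 55.1 to 58.9), against 64.0%. Outside the bounds the shares were 34.2% and 66.4%. The 2 shares thus lay closer together inside the bounds, where the 2 lists were also closer in size. The other pericentromeres had the same pattern, with 37.6% of 3409 replicate 1 peaks and 49.7% of 2590 replicate 2 peaks found, against 33.6% and 75.6% in the remaining genome. When 50% of both peaks had to overlap, 26.01% and 30.2% of the peaks in the bounds remained, against 18.8% and 32.2% of the whole lists.

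**Figure D3:**
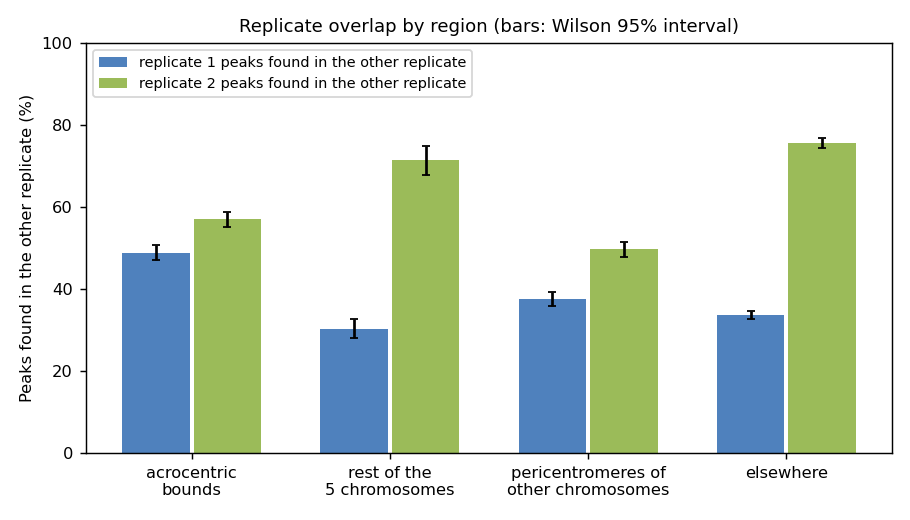
Bars give the percent of peaks of replicate 1 (blue) and replicate 2 (green) that overlap a peak of the other replicate, for 4 regions; error bars are Wilson 95% intervals. The bars for the acrocentric bounds, 48.8% and 57.0%, are closer together than those for the rest of the 5 chromosomes, 30.3% and 71.5%.

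The shares were alike between chromosomes. For replicate 1 they ran from 44.3% on chromosome 15 to 51.0% on chromosome 21, and for replicate 2 from 51.6% on chromosome 15 to 59.3% on chromosome 22. Gene-free stretches gave 48.0% and 57.6%, and the remaining span 50.8% and 55.8%, with overlapping intervals. Among peaks with a −log10 q at or above 5, 81 of 115 of replicate 1 (70.4%) and 102 of 137 of replicate 2 (74.5%) were found in the other replicate, against 75.3% and 81.6% of the whole lists at that threshold. For replicate 1 the share in the bounds was therefore above that of its list over all peaks and below it among these.

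The strongest members were narrow. The 10 that ranked highest by mean fold percentile of the 2 replicates all lay in gene-free stretches, and 6 of them were under 200 bp wide. The first was chr22:13105145-13105274, 130 bp wide, with folds of 5.51 in the overlap list, 5.53 in replicate 1 and 5.18 in replicate 2. On chromosome 21 the first was chr21:12546628-12546752, with folds of 4.99, 4.90 and 4.90. Both peaks were chosen for high folds in both replicates, as were the leading peaks below. Their like replicate folds are thus in part a result of that choice and no measure of agreement.

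The other chromosomes had leading peaks of the same kind. On chromosome 13 it was chr13:16976285-16976422, 138 bp wide, with folds of 4.88 in the overlap list, 5.01 in replicate 1 and 4.73 in replicate 2. On chromosome 15 chr15:19302492-19302633 had 5.10, 4.63 and 4.90. On chromosome 14 chr14:16552819-16553866 was wider, 1048 bp, and lower, with 4.15, 4.60 and 4.45. The nearest genes, such as LOC105379428 at 289 kb, ANKRD30BP2 at 491 kb and the small nuclear RNA pseudogene RNU6-978P at 581 kb, were all far away.

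Peaks with the highest q-values were also narrow but were not the ones with the highest folds. The 20 members with the highest −log10 q were all at most 700 bp wide, and the first 10 reached a −log10 q of 5 in both replicates. The highest was chr22:16352442-16352899, with a −log10 q of 25.2 in the overlap list, 17.04 in replicate 1 and 18.6 in replicate 2, and a fold of only 2.92. It lay outside the gene-free stretch, 34.8 kb from ABCD1P4, a pseudogene copy of a peroxisomal transporter gene. Next came chr14:18118090-18118200 with 22.3, chr13:17335012-17335172 with 19.5 and chr15:18803028-18803156 with 19.4. These peaks were chosen for their q after the values were seen. Of the 50 members under 200 bp, 43 had a −log10 q at or above 5 (86.0%), against 89.7% of all shared peaks under 200 bp.

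Width and fold ran against each other among members. The median width was 966 bp (quartiles 545.5 and 1681, range 111 to 31677), against 923 bp for all shared peaks. Across members, log10 width and fold had a Pearson r of -0.40 and a Spearman rho of -0.34, against -0.09 and -0.05 across all shared peaks. The median fold was 3.54 under 200 bp, 3.15 from there to 5 kb and 2.45 above 5 kb. Of the 53 shared peaks over 5 kb in the list, 27 were members (50.9%), as were 8 of the 10 widest. Of the 27, 16 lay on chromosome 21, 6 on chromosome 15 and 5 on chromosome 22, and 3 lay in a gene-free stretch.

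**Figure D4:**
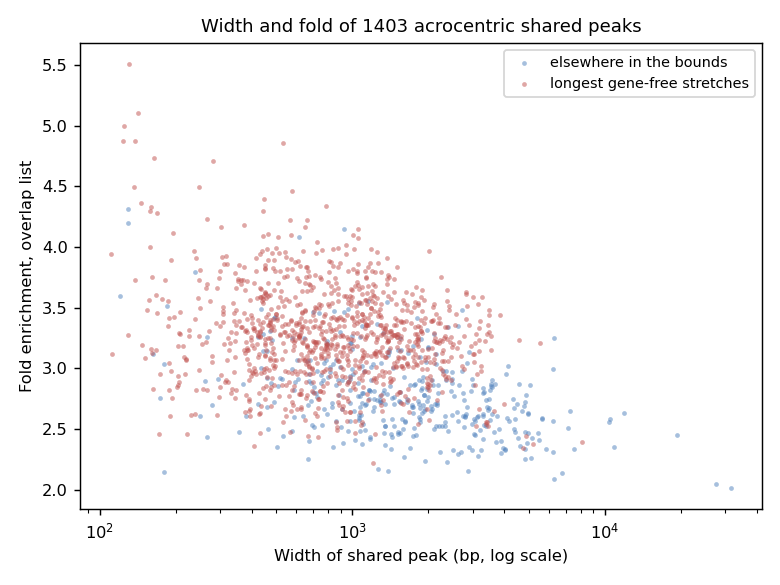
Each point is a member peak by its width in bp (horizontal axis, log scale) and its fold enrichment in the overlap list (vertical axis). Red points lie in the gene-free stretches and blue points elsewhere: the narrowest peaks reach folds up to 5.51, and the widest, of 31677 bp, has the lowest fold, 2.01.

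Wide members were often several peaks in a replicate. A member overlapped more than 1 peak of replicate 1 in 258 cases (18.4%) and of replicate 2 in 227 (16.2%), against 10.8% and 8.69% of all shared peaks. The widest member after those of the ribosomal DNA, chr15:20387078-20406289 beside HERC2P3, a transcribed pseudogene of the ubiquitin ligase gene HERC2, was 19212 bp wide and rested on 8 peaks of replicate 1 and 6 of replicate 2. Its fold was 2.45 and its −log10 q 3.17. On chromosome 22 the widest was chr22:10728935-10740820, with a fold of 2.63 and 5 peaks in each replicate.

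The ribosomal DNA of chromosome 21 carried the widest shared peaks of the whole list. Each repeat holds a 45S gene, whose transcript is cut into the 18S, 5.8S and 28S ribosomal RNAs, followed by a long intergenic spacer. The assembly has 3 complete 45S copies here, RNA45SN2, RNA45SN3 and RNA45SN1, and a fragment, RNA18SP5 with RNA5-8SP10. From 8202248 to 8472325 there were 13 shared peaks, 27 peaks of replicate 1 and 26 of replicate 2. All 13 had a −log10 q of at least 5 (6.96 to 12.4), while their folds were only 2.01 to 2.90. Their median fold, 2.42, stood below that of all members, and 3 of the 13 had replicate peaks with a −log10 q at or above 5 in both replicates. The copies are near-identical, so these peaks are not independent of each other, and the stretch was singled out after its values were seen.

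The spacer between RNA45SN3 and RNA45SN1 was covered almost without a break. A single shared peak, chr21:8404342-8436018, was 31677 bp wide, and its largest replicate peaks were 28141 and 28149 bp wide. Its folds were 2.01 in the overlap list, 2.03 in replicate 1 and 2.19 in replicate 2. The other, chr21:8444761-8472325 downstream of RNA45SN1, was 27565 bp wide, with replicate peaks of 23716 and 23742 bp and folds of 2.05, 2.04 and 2.19. Both replicates therefore gave these domains almost the same width, at folds near the lowest of the set.

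RNA45SN2 differed from the other copies downstream. In the 10 kb after the gene no base lay under a shared peak or under a peak of either replicate. The same 10 kb after RNA45SN3 were covered to 94.8% by shared peaks, 85.6% by replicate 1 and 85.4% by replicate 2, and after RNA45SN1 to 100%, 90.3% and 90.3%. Farther downstream of RNA45SN2, replicate 1 alone listed a peak of 14029 bp, chr21:8235278-8249306, with a fold of 2.10. The assembly's sequence downstream of RNA45SN2 was not compared with the other copies here, and the part of mapping in this difference was not tested.

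Within the gene, coverage by shared peaks was alike over some segments and coverage by replicate peaks differed. Shared peaks covered 74.3% of RNA45SN2, 77.9% of RNA45SN3 and 86.4% of RNA45SN1, and all bases of 18S, 5.8S, the first internal spacer and the 3 kb upstream in each copy. Over 18S, replicates 1 and 2 covered all bases in RNA45SN2 and RNA45SN3, and 92.4% and 92.2% in RNA45SN1. Replicate 2 covered the first internal spacer wholly in RNA45SN2 but to 36.04% in RNA45SN3 and 38.1% in RNA45SN1. Replicate 1 covered the 5′ external spacer to 53.6%, 51.7% and 10.5% in RNA45SN2, RNA45SN3 and RNA45SN1. The 28S gene was covered less, to 60.2% in RNA45SN2, 74.5% in RNA45SN3 and 88.0% in RNA45SN1. The second internal spacer was covered to 54.7%, 45.1% and 54.4% in the same order.

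Some breaks between peaks recurred at like positions. Counted from the start of the 45S gene, a break lay just before 18S at 3.04 to 3.56 kb in RNA45SN2, 2.54 to 3.56 kb in RNA45SN3 and 2.80 to 3.47 kb in RNA45SN1. Another lay just before 28S, at 7.28 to 7.81 kb, 7.19 to 7.82 kb and 7.34 to 7.87 kb. A break within 28S lay at 10.9 to 11.5 kb in RNA45SN3 and RNA45SN1, and the last peak of RNA45SN2 ended at 10.9 kb. A further break within 28S, at 8.50 to 9.15 kb, was in RNA45SN3 alone among the shared peaks of the 3 copies. The replicate lists had a break near there in the other copies too. In RNA45SN1 it lay at 8.67 to 9.09 kb in replicate 1 and 8.46 to 8.89 kb in replicate 2. In RNA45SN2 it lay at 8.42 to 9.28 kb in replicate 2, and replicate 1 had none. The break before 28S was in both replicates, whose peaks over RNA45SN2 ended at 7.17 and 7.18 kb and resumed at 7.86 and 7.83 kb. Whether these bases have fewer BRG1 reads or fewer placeable reads cannot be told apart from peak lists.

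**Figure D5:**
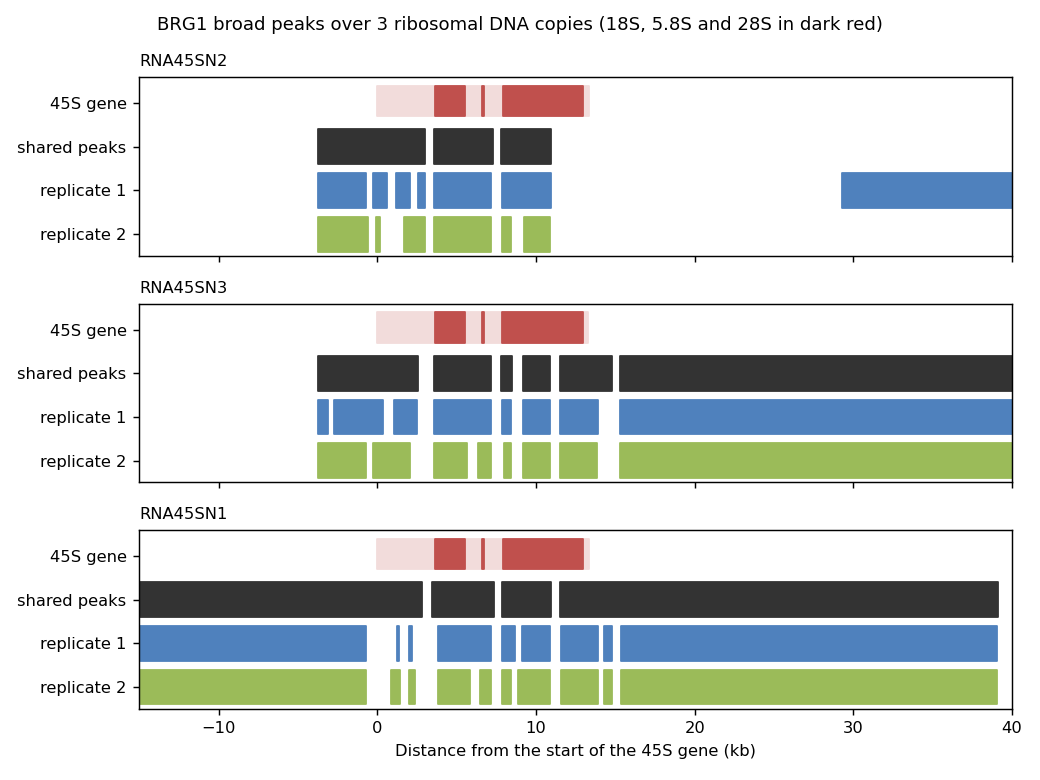
Horizontal bars are peaks of the overlap list (black), replicate 1 (blue) and replicate 2 (green) by distance in kb from the start of the 45S gene, for 3 copies; pale red is the 45S gene and dark red its 18S, 5.8S and 28S parts. The breaks before 18S and before 28S recur in all 3 copies, and the 10 kb after RNA45SN2 hold no peak.

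Most annotated genes in the bounds had no member. The share of all annotated genes of the genome with a shared peak was not computed, so the gene shares are not called high or low. A member overlapped 60 of the 447 genes in the bounds (13.4%). All 12 genes of the rRNA class had one, as did 6 of 13 microRNA genes, 11 of 75 long non-coding RNA genes, 26 of 272 pseudogenes and 4 of 64 protein-coding genes. The rRNA genes are the 45S copies of chromosome 21 and the 18S, 5.8S and 28S genes inside them. MIR6724-1, MIR6724-3, MIR6724-4 and MIR3648-1 lay under shared peaks of the same ribosomal DNA. These genes are thus not separate cases. Seen from the peaks, 109 members (7.77%, Wilson 95% interval 6.48 to 9.29) overlapped a gene of any class, against 43.0% of all shared peaks, and 15 (1.07%) overlapped a protein-coding gene, against 29.7%. Gene-free stretches are free of genes by definition, and of the 388 members outside them 28.1% overlapped a gene.

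The genes with most peaks were duplicated or little-studied. BAGE2 had 14 shared peaks (33 of replicate 1, 30 of replicate 2) at folds of 2.48 to 2.88, and they covered 26.8% of its 105 kb. LOC105372733, a long non-coding RNA gene, had 12 at folds of 2.61 to 3.51. TPTE, a protein-coding gene known for its expression in testis, had 7 at folds of 2.74 to 3.01, and LOC124903442 and RHPN2P1, a pseudogene of a rhophilin gene, had 6 each. FRG1FP, HERC2P3 and LOC101927615 had 4 each, and in LOC101927615 they covered 77.7% of the gene. None of these reached a −log10 q of 6, whereas RNA45SN3, with 5 peaks, reached 12.4.

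Gene families known from these arms are set beside the 13.4% of all genes in the bounds that had a member, and none is called different from that share. None of the 5 genes with POTE symbols had one, and the closest lay 64.6 kb away. POTE genes encode ankyrin-repeat proteins of reproductive tissues, but POTEH-AS1, among the 5, is a long non-coding RNA gene. Of 35 olfactory receptor genes and pseudogenes only OR4N2 had one, at a fold of 3.55 (3.92 in replicate 1, 3.98 in replicate 2). Of 6 ANKRD pseudogenes only ANKRD20A16P had one, at 3.31. TPTE was the only one of 4 genes with TPTE symbols, which include the long non-coding RNA gene TPTE2-AS1 and the pseudogene TPTEP1. CHEK2P2 (fold 2.26) and DUXAP8 (3.34) were the only ones of 13 CHEK2P, NBEAP, DUXAP and NF1P pseudogenes, and LINC01667 and LINC01666 the only ones of 17 LINC genes. None of 3 immunoglobulin heavy-chain orphons and not the single tubulin gene had one, and no GOLGA gene lay in the bounds.

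The RefSeq promoter table (250 bases before to 50 after a start) holds 116 promoters in the bounds, and none of them lay under a member. Genome-wide, 275 of 35116 promoters (0.783%) lay under a shared peak, a share so low that 0 of 116 is near it. The starts of the 45S genes, which shared peaks cover, are described above. The median distance of the 116 to a member was 321 kb, and 5 lay within 5 kb. The closest belongs to LOC105379418, a long non-coding RNA gene with 2 members in its body, and it is shown because it marks how near peaks came to a start. It lies at chr22:10741842-10742141 on the plus strand (GRCh38.p14), 1.02 kb from a member.
LOC105379418: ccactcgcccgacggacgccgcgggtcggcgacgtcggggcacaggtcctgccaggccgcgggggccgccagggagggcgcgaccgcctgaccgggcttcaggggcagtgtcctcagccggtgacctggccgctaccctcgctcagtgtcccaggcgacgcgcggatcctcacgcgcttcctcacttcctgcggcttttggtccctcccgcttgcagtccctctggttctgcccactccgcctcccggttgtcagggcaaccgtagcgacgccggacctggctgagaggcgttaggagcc
It held none of the motifs searched.

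The motifs were those of TEAD factors (GGAATG), of AP-1 (TGANTCA), the CENP-B box by its usual consensus, and the satellite unit GGAAT in tandem, on both strands. Every tandem GGAAT pair also holds the TEAD motif. The TEAD motif was in 17 of the 116 promoters (14.7%), against 14.0% of all promoters, and the AP-1 motif in 12 (10.3%), against 7.71%. The CENP-B box and tandem GGAAT were in none, against 0.0683% and 0.0740%. These windows say nothing about the peaks, which they do not touch.

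Identical sequences also recurred among the promoters. Of the 116, 14 (12.1%) were identical over their 300 bases to another promoter entry of the table, against 1.72% of all promoters. Among the 14, LINC01297 and LINC01297-DUXAP10-NBEAP6 are the same window listed under both symbols, not separate copies. Entries of the same window were not removed from either share. On chromosome 21, 4 of them matched promoters of the long arm of the same chromosome, LOC102724652 that of CRYAA, which encodes a lens crystallin, LOC102724428 that of the kinase gene SIK1, LOC102723451 that of C21orf140 and LOC107983987 that of SMIM34. POTEM and POTEG on chromosome 14 shared a promoter sequence. None of the 14 lay within 50 kb of a member, the closest being LOC124904992 at 58.4 kb.

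The peaks beside each bound were as follows. On chromosome 13 the last member inside was chr13:20419843-20420458 in CRYL1 (fold 4.08) and the first peak outside chr13:20814145-20815281 in XPO4 (3.45). On chromosome 14 they were chr14:19823007-19824374 in OR4N2 (3.55) and chr14:22536865-22537274 (4.21). On chromosome 15 they were chr15:20416465-20422684 in HERC2P3 (2.31) and chr15:20644828-20645512 (2.58). On chromosome 21 they were chr21:13016214-13016978 near ANKRD30BP2 (3.25) and chr21:15015874-15016835 in NRIP1 (4.09), and on chromosome 22 chr22:16523899-16524891 near CHEK2P4 (3.16) and chr22:17017984-17018379 near VN1R9P (3.16).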

How the data were processed

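BRG1 ChIP-seq was done in wild-type 12Z cells. The submitters' processing notes name, on build GRCh38.p12, MACS2 and bedtools, the aligner Bowtie2, SAMtools and Picard, and the trimmers cutadapt and Trim Galore, with versions and settings not given in the sources used here. All 3 deposited lists (1 per replicate and 1 overlap list) give broad peaks with a score, a fold (ratio of signal to background) and −log10 p- and q-values, all made by the authors. The deposited score column was not used. Use of pooled reads for the overlap list was not given in the sources used here. Read counts are absent from the 3 lists, so library depth is unknown, and intervals cover counting of peaks only and treat peaks as independent.

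Positions and overlaps were computed in Python 3.11.15 with numpy 2.4.6, pandas 2.3.3, scipy 1.17.1 and matplotlib 3.10.9, after the overlap and joining steps were tested on simulated data. Members were taken by midpoint, a replicate peak was found when 1 bp overlapped, and each member was given the replicate peak that overlaps it most. With 1 group of 2 libraries no test was made. Genes come from RefSeq on GRCh38.p14, whose patches leave chromosome positions unchanged. None of the gene table's coordinates are printed, and 217 genes starting below 5 Mb on these chromosomes were left out. Pericentromeres of other chromosomes lie within 5 Mb of hand-written bands rounded to 1 Mb. The planned motif search of peaks could not be run without a genome, and promoters were searched in its place.

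Named peaks are the 10 with the highest mean fold percentile, the leading ones of each chromosome, the 10 largest clusters and those beside each bound. Named genes overlap or neighbour them, have the most peaks or belong to listed families with a peak, and others are said to be chosen after their values were seen. MIR10396B, MIR6724-2 and the genes of identical promoters were also chosen so. The members and lists were chosen with earlier results of these data known.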

Additional observations from a re-analysis of the deposited data

How the results depend on the processing

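Of 25 alternative values, 6 were labelled the same and 19 moved, by a spread for each result that is not given here. The labels are not an even measure of stability. The 75 clusters within 5 kb, against 106, were labelled the same, and a share of 23.6%, against 22.1%, was labelled moved. The number of peaks in the bounds was 2613 to 3030 when each replicate list stood alone. Bounds moved by 1 Mb gave 1334 and 1428, and requiring the whole peak inside gave 1403. The share of the list was 17.4% to 25.7% in the replicate lists alone, 23.6% among peaks at or above a −log10 q of 5 and 25.9% by bases. Requiring 50% of both peaks lowered the share found in the other replicate to 26.01% for replicate 1 and 30.2% for replicate 2, since fewer overlaps count. A −log10 q of 5 or more raised it to 70.4% and 74.5% (75.3% and 81.6% of the whole lists). The median fold was 3.38 to 3.57 in the replicate lists and 3.41 among peaks at or above a −log10 q of 5. The share past the q threshold was 80.2% at a −log10 q of 3 (75.1% of all shared peaks), 3.14% at 10 (3.93%), and 3.80% to 5.24% in the replicate lists. Clusters of 5 or more numbered 54 when peaks within 20 kb were joined, since neighbouring clusters merge, 75 within 5 kb and 114 to 119 in the replicate lists. By midpoint, 6.41% of members lay in a gene. The cause of the other movements was not tested. Depth is unknown, so whether an unlisted place lacks BRG1 or reads cannot be told apart. No paired analysis was possible because only 1 group has replicates and no result comes from a test.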
